A study of Mus musculus with 13 samples.

Results

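In Ba/F3 cells deprived of interleukin 3 (IL3), 873 of the 3347 HDAC3 regions on assembled chromosomes (26.1%, 95% Wilson interval 24.6 to 27.6) overlapped an LSD1 region but no STAT5A region. They were taken from the list of HDAC3 regions called on the pooled library without IL3, as those that overlapped the pooled LSD1 list without IL3 by 1 bp or more and neither pooled STAT5A list, without or with IL3. LSD1 overlapped 2328 HDAC3 regions in all, so that the 873 regions made up 37.5% of these. The other HDAC3 regions served for comparison: 1455 overlapped both LSD1 and STAT5A, 759 overlapped neither, and 260 overlapped STAT5A alone. The regions were thus chosen by the pooled calls of all 3 proteins, and their scores in these lists and their lack of pooled STAT5A calls are descriptions. The LSD1 and HDAC3 lists with IL3, position and sequence were not used in the choice.

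The cells were Ba/F3, a pro-B line of the mouse that needs IL3 to grow, and the data are ChIP-seq (sequencing of immunoprecipitated chromatin) for STAT5A, LSD1 and HDAC3. All cells came from culture in 1 ng/mL IL3. The groups without IL3 were deprived of it for 6 h, and the groups with IL3 had the same 6 h of deprivation followed by 30 min in 10 ng/mL IL3. Each of the 6 groups had 2 biological replicates, each with its own list of called regions, and 1 pooled list.

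LSD1, encoded by Kdm1a, removes methyl groups from lysine 4 of histone H3 and works with the CoREST proteins, which also bring in deacetylases. HDAC3 removes acetyl groups from histones and needs the NCoR and SMRT corepressors, with their partners TBL1X and TBLR1, for its activity. Neither enzyme binds a DNA sequence of its own, and both are brought to chromatin by transcription factors, of which STAT5, activated by JAK2 downstream of the IL3 receptor, is one candidate in these cells.

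The regions lay both at gene starts and far from them, and 174 promoter windows of 162 genes were overlapped by one. These windows come from RefSeq (GRCm38.p6, the assembly that mm10 names) and hold 250 bases before to 50 bases after an annotated start. The 6 stretches below show what DNA under such a region looks like. Each is the part of a region that lies within the promoter window, upstream of the start and outside every annotated gene, 5′ to 3′ on the strand of its gene, with motif matches in capitals. Irf2, Nfe2l2 and Suds3 belong to the gene lists used here, and Vav1, Nlrp3 and Map2k1 were chosen after their values were seen, for the motifs they hold.
Vav1, chr17:57278998-57279099, plus strand: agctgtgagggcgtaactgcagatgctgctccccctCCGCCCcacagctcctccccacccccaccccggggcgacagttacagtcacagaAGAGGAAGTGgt
Nlrp3, chr11:59541458-59541568, plus strand: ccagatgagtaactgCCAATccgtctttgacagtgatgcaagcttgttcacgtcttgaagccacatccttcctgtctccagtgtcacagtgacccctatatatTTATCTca
Irf2, chr8:46739598-46739744, plus strand: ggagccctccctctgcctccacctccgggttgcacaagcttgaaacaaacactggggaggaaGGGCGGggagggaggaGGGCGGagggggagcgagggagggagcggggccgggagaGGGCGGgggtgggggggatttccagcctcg
Nfe2l2, chr2:75704822-75704913, minus strand: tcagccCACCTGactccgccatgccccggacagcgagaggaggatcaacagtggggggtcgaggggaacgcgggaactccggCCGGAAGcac
Suds3, chr5:117115994-117116074, minus strand: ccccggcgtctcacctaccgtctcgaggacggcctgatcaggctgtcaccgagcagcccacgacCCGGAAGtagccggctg
Map2k1, chr9:64253675-64253821, minus strand: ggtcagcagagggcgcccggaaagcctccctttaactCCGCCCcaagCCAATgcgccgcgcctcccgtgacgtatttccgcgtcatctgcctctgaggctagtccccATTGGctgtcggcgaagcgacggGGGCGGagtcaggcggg
Vav1, a guanine nucleotide exchange factor of blood cells, has a PU.1 match next to its start and a GC box of the SP and KLF factors. Nlrp3, an inflammasome sensor, has an NFY match and a GATA match. Irf2, an interferon regulatory factor, has 3 GC boxes and its stretch is the whole region. Nfe2l2, the factor of the oxidative stress response, and Suds3, a subunit of the SIN3 deacetylase complex, each have an ETS match. Map2k1, the MAP kinase kinase MEK1, has 2 GC boxes and 2 NFY matches.

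The GC box was the most frequent of 18 motifs in the promoter windows and the STAT motif stood in few of them. The letters were searched on both strands. They were TTCNNNGAA for STAT factors, TGANTCA for AP-1, AGATAA for GATA factors, TGTGGT for RUNX factors, CCGGAAG for ETS factors and AATCACNGC for GFI1. The GC box of SP and KLF factors was GGGCGG, NFY was searched as CCAAT, the cyclic AMP response element as TGACGTCA and CEBP as TTGCGCAA. An E-box was searched as CAGCTG, as CAGGTG or, for MYC, as CACGTG. The longer motifs of NFE2 (which contains an AP-1 match), PU.1, NRF1, YY1 and ZBTB33 were searched too, and each stood in at most 4 of the windows. GGGCGG stood in 70.7% of the 174 windows and in 35.6% of all 32815 RefSeq windows. The ETS motif stood in 24.7% against 8.86%. The STAT motif stood in 5 windows (2.87%) against 8.29% of all windows, and GATA in 8 windows (4.6%) against 11.2%. RUNX (13.2% against 16.8%), NFY (33.9% against 37.4%), CAGGTG (17.2% against 20.2%) and CAGCTG (19% against 16.3%) lay closer to the shares in all windows. The windows were also richer in GC, with a median of 64.3% against 52.7%, and in CpG, with an observed to expected ratio of 0.823 against 0.383. The part of base composition in the motif shares was not tested.

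Windows at the other HDAC3 regions were much alike in composition, and for most motifs in content. Median GC was 64.0% at the 304 windows with LSD1 and STAT5A and 66.0% at the 113 windows with neither. GGGCGG stood in 65.5% and 76.1% of these, and the ETS motif in 20.1% and 22.1%. The STAT motif stood in 4.61% of the windows with LSD1 and STAT5A (2.76 to 7.58), 3.54% of those with neither and 10.7% of the 75 windows with STAT5A alone (5.50 to 19.7), beside 2.87% (1.23 to 6.55) at the LSD1 and HDAC3 regions without STAT5A. The largest gap to the windows with LSD1 and STAT5A, in relative terms among motifs with at least 5% there, was that of GATA, at 4.6% (2.35 to 8.81) against 11.2% (8.11 to 15.2). GATA also stood in only 4.42% of the windows with neither and 4% of those with STAT5A alone. A low GATA share was thus not particular to the regions without STAT5A. These are counts of letters in promoter windows, and they say nothing about regions far from a start or about which factor was bound.

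**Figure D1:**
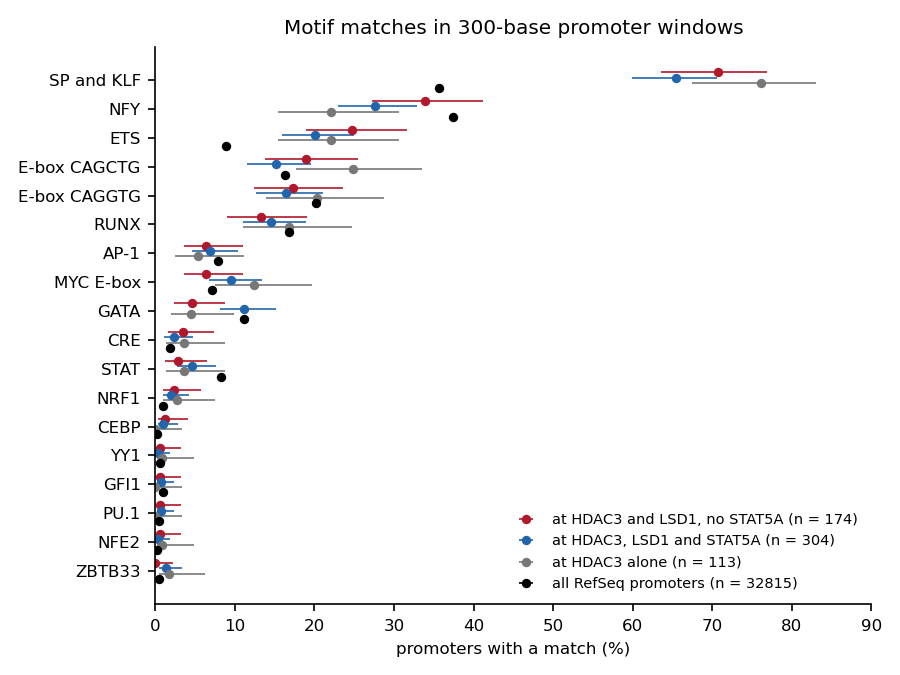
Share of 300-base RefSeq promoter windows with a match to each of 18 motifs (x axis, percent, points with 95% Wilson intervals), for windows overlapped by HDAC3 and LSD1 regions without STAT5A (174), by regions with all 3 proteins (304), by HDAC3 alone (113) and for all 32815 windows. The GC box (SP and KLF) and ETS shares of the 3 region classes lie above those of all windows, and the NFY shares do not.

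The lists differ in size and quality, which limits every count that follows. Replicate lists held between 265 and 15786 regions, and LSD1 without IL3 had 1007 regions in replicate 1 and 15786 in replicate 2. Sequencing depth is not given in the sources used here. HDAC3 with IL3 replicate 2 stood apart, since 1 region held 74.2% of its summed score and 31 of its 265 regions off the assembled chromosomes. The score that the authors deposited for each region has no stated definition. It rises in fixed steps, 2.22 in the pooled HDAC3 list without IL3, where the lowest score was 5 steps.

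The 873 regions had middling HDAC3 scores and sat on LSD1 regions of the upper part of the LSD1 list. Their HDAC3 score ran from 11.1 to 77.8 with a median of 17.8, equal to that of the whole list. The LSD1 score without IL3 ran from 12.7 to 268.8 with a median of 35.5, against 25.4 for all LSD1 regions of that list, 73.8% of which scored lower. Where LSD1 and STAT5A both overlapped an HDAC3 region, the medians were 20 for HDAC3 and 45.6 for LSD1, and where neither did, the HDAC3 median was 15.6. The HDAC3 and LSD1 calls had a median of 43 bp between centres and a median overlap of 117 of the 147 bp of an HDAC3 region. The rule asks for an overlap and so fixes that the calls lie close, here with centres at most 159 bp apart. At regions with LSD1 and STAT5A, which overlap LSD1 in the same way, the medians were 37 bp and 123 bp.

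At the edges the rule separates near neighbours. The smallest LSD1 overlap was 1 bp, 13 regions overlapped by 10 bp or less, and 58 HDAC3 regions without STAT5A missed an LSD1 region by 50 bp or less. On the STAT5A side, 19 regions had a pooled STAT5A region within 10 bp and 102 within 100 bp, and the nearest touched without overlap. The number of regions also rests on single libraries: with the list of the other replicate in place of the pooled one, it was 69 without HDAC3 replicate 1 (no IL3), 423 without HDAC3 replicate 2 and 90 without LSD1 replicate 2.

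STAT5A was near many of these regions without overlapping them. The median gap to the nearest pooled STAT5A region was 4091 bp, 281 regions (32.2%) had one within 1 kb and 572 (65.5%) within 10 kb. For the HDAC3 regions with neither LSD1 nor STAT5A, whose choice excludes STAT5A in the same way, the median gap was 4799 bp and 29.6% had one within 1 kb. The farthest of the regions lay more than 1 Mb from STAT5A, and 96.9% lay within 100 kb.

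**Figure D2:**
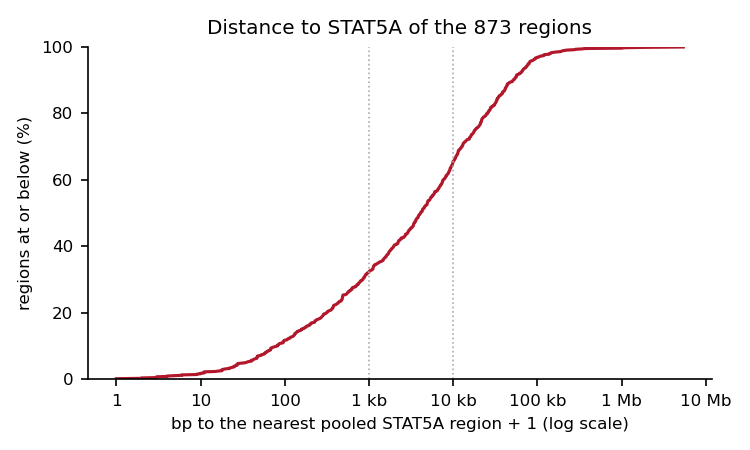
Cumulative share of the 873 regions (y axis, percent) by distance to the nearest pooled STAT5A region of either condition (x axis, bp + 1, log scale). The curve stands at 32.2% at 1 kb and 65.5% at 10 kb (dotted lines), and the rule fixed only that no region overlaps STAT5A.

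Single STAT5A libraries called a few of them. The replicate lists held 18 (2.06%) and 30 (3.44%) of the regions without IL3, and 47 (5.38%) and 39 (4.47%) with IL3. In all, 752 regions (86.1%) were in none of the 4 STAT5A replicate lists, 109 in 1, 11 in 2 and 1 in 3. The region in 3 lists lay 21547 bp from Herpud2 and 40 bp from a pooled STAT5A region, and it scored 23.8 without IL3 in replicate 2 and 63.4 and 35.0 with IL3. The Vav1 region was among the 11 called in 2, with STAT5A scores of 23.8 and 40 in the replicate 2 lists without and with IL3. Both genes were singled out after their values were seen.

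Without IL3, the replicates of each protein held very different numbers of the regions. LSD1 replicate 1 held 86 of them (9.85%; background over all 3347 HDAC3 regions, 11.3%) and replicate 2 held 796 (91.2%; background 67.1%). HDAC3 replicate 1 held 352 (40.3%; background 41.6%) and replicate 2 held 63 (7.22%; background 14.0%). Only 18 regions (2.06%) were in both HDAC3 lists without IL3, and 467 (53.5%) were in none of the 4 HDAC3 replicate lists, so that they were HDAC3 regions in the pooled library alone. For LSD1, 81 regions were in both lists without IL3 and 49 (5.61%) in all 4.

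After IL3 was given back, LSD1 was called at most of the regions and HDAC3 at few. The pooled LSD1 list with IL3 held 546 of them (62.5%, 59.3 to 65.7; background 60.5%), and the pooled HDAC3 list with IL3 held 69 (7.90%, 6.29 to 9.88; background 14.8%). LSD1 alone was found at 491 regions (56.2%), both proteins at 55 (6.30%), HDAC3 alone at 14 (1.60%) and neither at 313 (35.9%). The LSD1 share lay near its background and the HDAC3 share below it. With 1 list in place of the pooled one, the HDAC3 share was 0.802% without HDAC3 replicate 1 with IL3 and 4.24% without replicate 2. It was 18.8% of the 69 regions left without HDAC3 replicate 1 (no IL3) and 12.2% of the 90 left without LSD1 replicate 2 (no IL3). The LSD1 share was 30.4% without LSD1 replicate 2 with IL3.

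By library, the LSD1 lists with IL3 held 265 (30.4%; background 35.6%) and 458 (52.5%; background 53.1%) of the regions, and the HDAC3 lists 37 (4.24%; background 9.47%) and 7 (0.802%; background 1.73%). Both LSD1 shares lay above both HDAC3 shares. The mean share was 41.4% ± 15.6 (SD, n = 2) for LSD1 and 2.52% ± 2.43 (SD, n = 2) for HDAC3, a difference of 38.9 percentage points (two-sided exact permutation test, p = 0.333, below which 2 libraries a group cannot go). It was 66.7 among the 90 regions left without LSD1 replicate 2 (no IL3). The lists of LSD1 are also longer than those of HDAC3, and the part of list length in this difference was not tested.

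The shares with and without IL3 are set side by side as a description with no test, because the libraries without IL3 fed the pooled lists that chose the regions and so favour calls without IL3. For HDAC3 the share was 23.8% ± 23.4 (SD, n = 2) without and 2.52% ± 2.43 (SD, n = 2) with IL3, a difference of -21.2 percentage points, which was -94.9 without HDAC3 replicate 1 and -96.0 without HDAC3 replicate 2 (no IL3). For LSD1 it was 50.5% ± 57.5 (SD, n = 2) without and 41.4% ± 15.6 (SD, n = 2) with IL3, a difference of -9.11 percentage points that lies within the spread of the libraries. Without LSD1 replicate 1 or 2 (no IL3) this difference was -58.1 or -29.4, and without LSD1 replicate 1 or 2 with IL3 it was 1.95 or -20.2. Where a library without IL3 of the same protein was left out, the list of its other replicate chose the regions. Every region was then called without IL3 by the choice. The values -94.9, -96.0, -58.1 and -29.4 therefore do not measure a change with IL3.

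The LSD1 and HDAC3 regions without STAT5A were called less often with IL3 than those with STAT5A, in each of the 4 LSD1 and HDAC3 libraries. The difference in the share called was -26.3 and -24.7 percentage points in the LSD1 lists and -13.7 and -0.573 in the HDAC3 lists, with a mean of -16.3 ± 11.9 (SD, n = 4) and a two-sided exact sign-flip permutation p of 0.125, the smallest that 4 libraries allow. In HDAC3 replicate 2 with IL3, the list that stands apart, the shares were 0.802% and 1.37%. The classes were themselves set apart by STAT5A calls with IL3. Of the regions with STAT5A, 80.1% overlapped the pooled STAT5A list with IL3, and the regions without STAT5A were chosen to miss it. The part of this choice in the difference was not tested. In the pooled lists, LSD1 was found with IL3 at 84.3% of the regions with STAT5A and HDAC3 at 25.5%. The regions with STAT5A also had higher scores without IL3, as given above. Among regions in the same part of the HDAC3 list, split in 3 equal parts by score (tied scores in list order), the mean difference was -11.4, -11.2 and -18.1 percentage points from the lowest to the highest scores. In the lowest and the middle part 3 of 4 libraries were lower, and HDAC3 replicate 2 with IL3 differed by 0.0273 and 0.0981 points (two-sided exact sign-flip permutation p = 0.25 in both). In the highest part all 4 were lower. The part of the LSD1 score in these differences was not tested.

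Against HDAC3 regions with neither protein, the regions were called more often with IL3 in 3 of 4 libraries. The differences were 25.3 and 40.1 percentage points in the LSD1 lists and 3.32 and -2.36 in the HDAC3 lists, with a mean of 16.6 ± 19.7 (SD, n = 4; two-sided exact sign-flip permutation p = 0.25). The mean was 8.77 without LSD1 replicate 2 with IL3. The lists of LSD1 set this mean, and an LSD1 region without IL3 was a condition of the choice. Against HDAC3 regions with STAT5A alone the mean difference was 3.98 percentage points (two-sided exact sign-flip permutation p = 0.5), with 2 libraries higher and 2 lower.

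**Figure D3:**
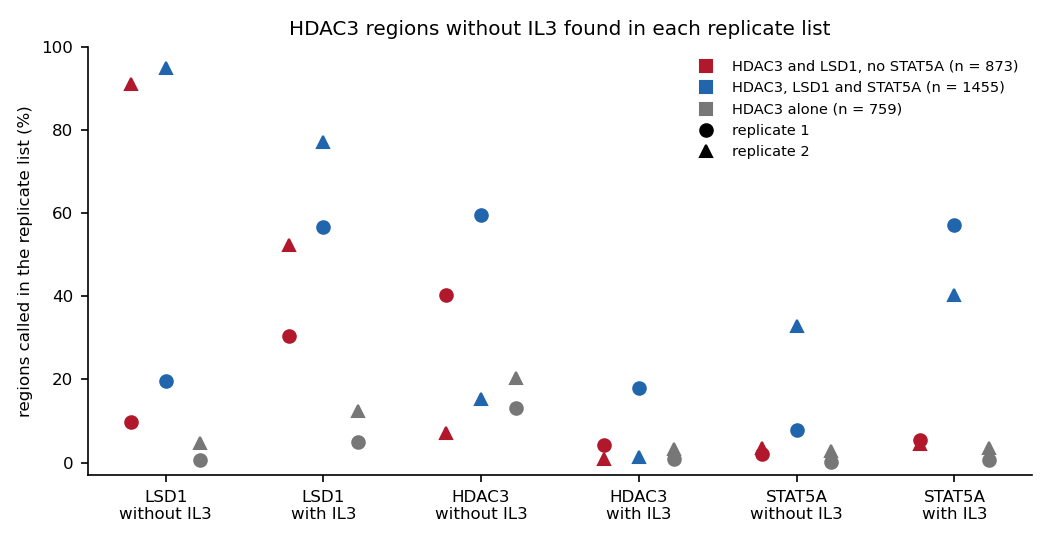
Share of HDAC3 regions without IL3 (y axis, percent) found in each of the 12 replicate lists (circles replicate 1, triangles replicate 2), for the 873 regions with LSD1 and no STAT5A, the 1455 with LSD1 and STAT5A and the 759 with neither. With IL3 the 873 regions lie at 30.4% and 52.5% for LSD1 and at 4.24% and 0.802% for HDAC3, below the regions with STAT5A in all 4 lists. The classes were set apart in part by STAT5A calls with IL3.

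Regions with a high LSD1 score without IL3 were more often LSD1 regions with IL3. When the 873 were split by that score into 3 sets of 291 (tied scores in list order), LSD1 was called with IL3 at 44.7% (39.1 to 50.4), 59.5% (53.7 to 64.9) and 83.5% (78.8 to 87.3) from the lowest to the highest scores. Split by the HDAC3 score instead, the LSD1 share was 60.5%, 62.9% and 64.3%. The share called in HDAC3 with IL3 was 2.75%, 5.50% and 15.5% (11.8 to 20.1) over the HDAC3 score and 6.19%, 4.81% and 12.7% over the LSD1 score. The LSD1 calls with IL3 thus went with the LSD1 score without IL3 and little with the HDAC3 score. The LSD1 regions found with IL3 at the 546 regions had a median score of 20.5, against 15.4 for the whole list. The HDAC3 regions found with IL3 at 69 had a median of 15.8, equal to that of their list.

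**Figure D4:**
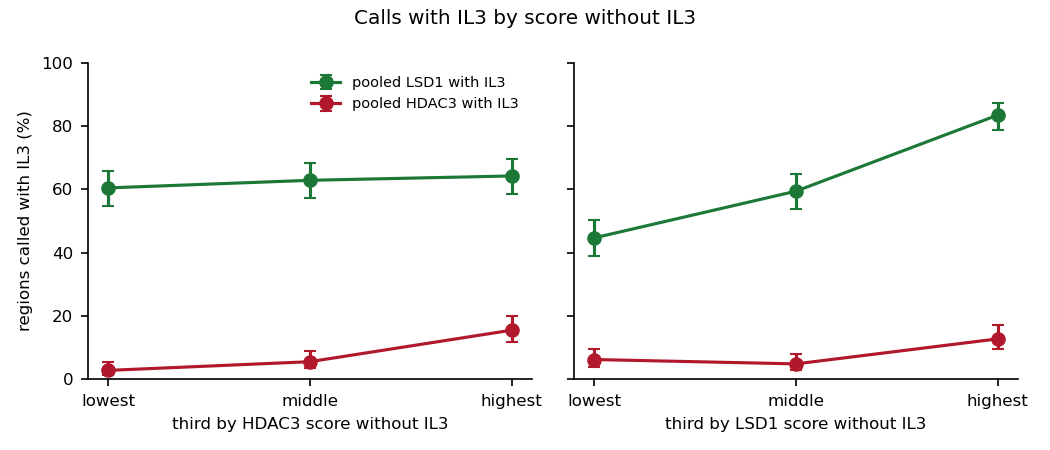
Share of the 873 regions called in the pooled LSD1 and HDAC3 lists with IL3 (y axis, percent, with 95% Wilson intervals), in 3 sets of 291 by HDAC3 score (left) or LSD1 score (right) without IL3. LSD1 climbs from 44.7% to 83.5% over the LSD1 score, and HDAC3 from 2.75% to 15.5% over the HDAC3 score.

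Replicated loss of HDAC3 with IL3, meaning a call in both lists without IL3 and in neither with IL3, was found at 16 of the regions (1.83%; background 2.99%), and the opposite at 0 (background 0%). Of the 16, those at Rgs12 (17.6) and Herpud2 (12.3) were still in the pooled HDAC3 list with IL3. Of the regions with LSD1 and STAT5A, 82 (5.64%) had such a loss. The highest score was at Mpst (chr15:78413190-78413336), which encodes a sulfurtransferase that makes hydrogen sulfide. There HDAC3 scored 56.4 and 25.7 in the replicates without IL3 and was not called with IL3. LSD1 scored 94.5 in replicate 2 without IL3 and 27.2 and 48.0 with IL3. With IL3 the region was thus called in both LSD1 libraries and in neither HDAC3 library.

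At Ahi1 (chr10:21054838-21054984), a gene for a protein of the primary cilium, HDAC3 scored 56.4 and 22 without IL3 and was not called with IL3, while LSD1 was called in all 4 lists, at 75.6 and 131.0 without and 37.1 and 69.3 with IL3. STAT5A replicate 1 without IL3 also called the Ahi1 region, at 54.7, and its nearest pooled STAT5A region was 15 bp away. The region at Rasa2, a GTPase-activating protein for Ras, had HDAC3 scores of 28.2 and 33.0 without IL3 and LSD1 scores of 19.8 and 24.0 with IL3. In all 3 of these genes LSD1 stayed on the list in both libraries with IL3. The region at Plcg2, the phospholipase C of B cell receptor signalling (HDAC3 33.8 and 22 without IL3), and that in Ptpre, a tyrosine phosphatase (33.8 and 22), had neither protein in any library with IL3. The region 233 bp from Per2, a clock repressor, had HDAC3 scores of 28.2 and 22 without IL3 and an LSD1 score of 32.0 in replicate 2 with IL3.

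A replicated loss of LSD1 was found at 12 regions (1.37%; background 0.717%) and a replicated gain at 3 (0.344%; background 1.88%). The region 22269 bp from Zfp36l2 (chr17:84161582-84161728), a gene for an RNA-binding protein that promotes mRNA decay, was the only one to lose both proteins. It scored 90.7 and 45.7 for LSD1 and 39.5 and 22 for HDAC3 without IL3, and none of the 4 libraries with IL3 called it. The other losses of LSD1 included regions 1578 bp from Ccr3, an eotaxin receptor, with 75.6 and 137.1 without IL3, in Bckdhb, a subunit of branched-chain ketoacid dehydrogenase, with 105.8 and 158.4, and in Angpt1, the ligand of the Tie2 receptor, with 60.5 and 79.2. The pooled LSD1 list with IL3 still held the regions at Ccr3 (16.7) and Angpt1 (14.1), and not that at Bckdhb. It also held those at Sik1 (16.7), Ephb2 (14.1) and Limk2 (12.8). STAT5A replicate 1 without IL3 called the Angpt1 region at 43.8, and a pooled STAT5A region touched it without overlap.

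Of the 3 gains of LSD1, one lay between genes, 183007 bp from P2ry1, an ADP receptor, with scores of 22.3 and 26.6 with IL3. STAT5A replicate 1 with IL3 called the P2ry1 region at 104.4. The second lay in Alad, an enzyme of haem synthesis, with 27.2 and 40, and the last 3983 bp from Heatr5a, with 17.3 and 21.3. None of these was called in an LSD1 replicate list without IL3, although the pooled list had them at 35.5, 45.6 and 22.8, as the rule requires. The genes with LSD1 losses and gains were named after their values were seen. The lists without IL3 behind these counts also fed the choice of regions, so the counts are descriptions. They turn on single libraries, since each asks for agreement of 2. Without HDAC3 replicate 1 or 2 (no IL3), 62 or 391 HDAC3 losses were counted, and without LSD1 replicate 2 (no IL3) 2. For the 62 and the 391, the HDAC3 list that was left also chose the regions, so a loss only meant no call with IL3. Without STAT5A replicate 2 (no IL3) or replicate 1 (with IL3), 25 HDAC3 losses were counted. LSD1 losses numbered 333 without LSD1 replicate 1 (no IL3), 29 without LSD1 replicate 2 (with IL3) and 1 without HDAC3 replicate 1 (no IL3). The 333 likewise only lacked a call with IL3, since the LSD1 list that was left chose the regions. LSD1 gains ranged from 0, without LSD1 replicate 1 or 2 or HDAC3 replicate 1 (no IL3), to 23 without LSD1 replicate 1 (with IL3), with 10 without replicate 2. They were 5 or 6 without STAT5A replicate 2 (no IL3) or either STAT5A replicate with IL3. Without LSD1 replicate 1 or 2 (no IL3) a gain of LSD1 was not possible, because the choice then required a call in the list that was left. HDAC3 gains were 1 without HDAC3 replicate 1 (with IL3) and 8 without replicate 2.

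Of the 8 LSD1 and HDAC3 replicate lists, the regions were found in a median of 2, against 3 for regions with STAT5A and 0 for HDAC3 regions with neither. The gap to the regions with neither is partly fixed by the choice. LSD1 replicate 2 without IL3, which fed it, held 91.2% of the regions and 4.74% of those with neither. Of the LSD1 and HDAC3 regions without STAT5A, 24 were in none, 213 in 1, 271 in 2, 205 in 3, 114 in 4, 39 in 5, 6 in 6 and 1 in 7, and none was in all 8. The region in 7 lay 58292 bp from Efcab11 (chr12:99633830-99633976). LSD1 scored 105.8 and 137.1 there without IL3 and 59.4 and 93.3 with IL3. HDAC3 scored 45.1 and 29.4 without IL3 and 21.9 in replicate 1 with IL3, and was not called in replicate 2 with IL3. Its nearest pooled STAT5A region was 58 bp away, and STAT5A replicate 2 with IL3 called it at 55.0.

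The regions found in 6 lists included those nearest Ctnnb1, which encodes beta-catenin, in Plec, which encodes the cytolinker plectin, and in Cuedc1. The Ctnnb1 region (chr9:120826436-120826582) lay 106891 bp from the gene and scored 107.2 for HDAC3 in replicate 1 without IL3 and 41.1 in replicate 1 with IL3. LSD1 scored 75.6 and 64.0 there without IL3 and 34.7 and 64.0 with IL3. The Cuedc1 region had HDAC3 scores of 107.2 and 21.9 in the replicate 1 lists without and with IL3, and the Plec region 56.4 and 24.7. At all 3, HDAC3 was called in the 2 replicate 1 libraries and in neither replicate 2 library. The nearest pooled STAT5A region was 40 bp from the Ctnnb1 region, 85 bp from the Cuedc1 region and 2390 bp from the Plec region.

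The highest LSD1 scores among the regions included the following 4. In Clasp2 (chr9:113859512-113859658), which encodes a microtubule plus-end protein, LSD1 scored 121.0 and 301.7 without IL3 and 71.8 and 149.2 with IL3. HDAC3 scored 39.5 in replicate 1 without IL3 and was called in no other replicate list. In Slc9a9, a sodium-proton exchanger of endosomes, LSD1 scored 75.6 and 262.0 without and 37.1 and 74.6 with IL3, with HDAC3 at 45.1 and 21.9 in the replicate 1 lists. STAT5A replicate 1 called the Slc9a9 region at 38.3 without and 26.1 with IL3. At Milr1, an inhibitory receptor of mast cells, the region lay 80 bp before an annotated start. LSD1 scored 121.0 and 182.8 there without and 64.4 and 125.2 with IL3, and HDAC3 39.5 in replicate 1 without IL3 alone. In Lyl1, a helix-loop-helix factor of blood progenitors, LSD1 was not called in replicate 1 without IL3, and scored 161.5 in replicate 2 and 74.3 and 141.2 with IL3. The nearest pooled STAT5A region was 77 bp from the Lyl1 region, and 29008, 42650 and 7879 bp from those at Clasp2, Slc9a9 and Milr1.

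The 2 highest HDAC3 scores were at regions inside Rpl8 and Tmsb4x, and there it was the replicate 2 libraries of HDAC3 that made the calls. At Rpl8 (chr15:76904853-76904999), a protein of the large ribosomal subunit, HDAC3 scored 117.5 in replicate 2 without IL3 and 73.5 in replicate 2 with IL3, and neither replicate 1 library called it. LSD1 was called there in 1 of 4 lists, at 21.3 in replicate 2 with IL3. At Tmsb4x, which encodes the actin-binding thymosin beta 4, HDAC3 scored 113.8 and 37.6 in the replicate 2 lists, and no LSD1 replicate list held the region. At Rack1, a scaffold of the small ribosomal subunit, the scores were 80.8 and 32.5, again with no LSD1 replicate call. Eef1b2, a translation elongation factor, had 47.7 and 12, and Rps20, of the small ribosomal subunit, 25.7 and 30.8.

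All 7 regions called in HDAC3 replicate 2 with IL3, the library that stands apart, were called by neither replicate 1 library of HDAC3. They are the 5 named, one in Dab2, an endocytic adaptor (25.7 and 15.4), and one 98297 bp from Tbl1xr1, which was called at 18.8 with IL3 and not without. They were singled out after their values were seen. Of the 45 regions called without IL3 in HDAC3 replicate 2 alone, 6 were called in replicate 2 with IL3 and 0 in replicate 1 with IL3. Of the 334 called in replicate 1 alone, 0 were called in replicate 2 with IL3 and 27 in replicate 1. The replicate number is not stated to mark a shared culture or day.

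The regions were spread over gene starts, gene bodies and intergenic DNA. Of the 873, 195 (22.3%, 19.7 to 25.2; background 26.4%) had their centre within 1 kb of an end of a protein-coding gene, 469 (53.7%) lay inside a gene and the median distance to a gene end was 9799 bp. The share near gene ends was 21.0% (18.9 to 23.1) for regions with STAT5A and 35.4% (32.1 to 38.9) for HDAC3 regions with neither. Of the 853 regions off chromosome 18, 191 (22.4%) lay within 1 kb of an annotated start and 9 (1.06%) within 1 kb of a 3′ end of known strand. Of the others, 315 (36.9%) lay elsewhere inside a gene and 338 (39.6%) outside genes. At HDAC3 regions with neither protein, the share at 3′ ends was 8.92% (7.07 to 11.2) and that at starts 24.1%. The table of starts is not complete: it covers 17491 of 21883 protein-coding genes, and strand was known for these alone. The shares at starts and 3′ ends can thus be too low. The region 233 bp from an end of Per2, for one, was counted outside genes. Exons and introns are not annotated in the table.

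Where a region lay went with which HDAC3 replicate called it, and this held for regions with STAT5A too. Of the 334 regions called without IL3 in HDAC3 replicate 1 alone, 9.58% (6.87 to 13.2) lay within 1 kb of a gene end, against 31.1% (19.5 to 45.7) of the 45 called in replicate 2 alone and 30.7% (26.7 to 35.0) of the 476 called in neither. In the same order the shares were 14.9%, 32.9% and 31.9% for regions with LSD1 and STAT5A. For HDAC3 regions with neither protein they were 29.3%, 46.4% and 33.4%. Among the regions without STAT5A, the calls by position were as follows. HDAC3 replicate 1 called 16.8% of the regions at starts, 45.7% of those elsewhere inside genes and 47.6% of those outside genes, and replicate 2 called 5.76%, 8.89% and 5.33%. The share near gene ends was 9.46% among the regions left without HDAC3 replicate 2 (no IL3). With IL3, the pooled LSD1 list held 69.6% of the regions at starts, 61.9% inside genes and 60.4% outside, and the pooled HDAC3 list 4.71%, 7.94% and 10.1%. Median scores without IL3 were 30.4, 38.0 and 35.5 for LSD1 and 15.6, 17.8 and 20 for HDAC3 in the same order, so the regions at starts had the lower scores for both proteins.

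**Figure D5:**
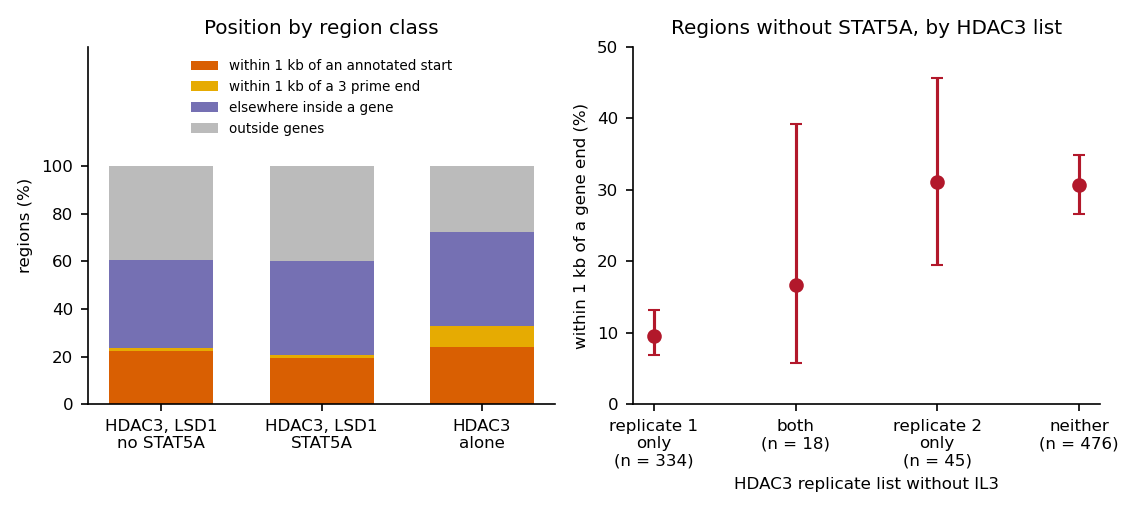
Left, share of regions (y axis, percent) by position for the regions with LSD1 and no STAT5A, those with LSD1 and STAT5A and those with HDAC3 alone. Right, share of the 873 regions within 1 kb of a gene end (percent, 95% Wilson interval) by the HDAC3 replicate lists without IL3 that called them, which is 9.58% for replicate 1 alone and 30.7% for neither. For regions with LSD1 and STAT5A (not drawn) these shares were 14.9% and 31.9%.

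Of 21883 protein-coding genes in the reference, 603 (2.76%) had one of the regions within 10 kb of an end and 216 (0.987%) within 1 kb, while 10.3% had any HDAC3 region without IL3 within 10 kb. Only 37 genes had 2 or more, and 73 also had a region with LSD1 and STAT5A within 10 kb. The regions were scattered, since 14 (1.60%) had another of them within 1 kb and 188 (21.5%) within 50 kb. Their share of the HDAC3 regions of a chromosome ran from 17.9% on chromosome 19 to 37.4% on chromosome 5. P2rx7, an ATP-gated ion channel of blood cells, had 3 of them, at 549, 8832 and 1600 bp from a gene end. LSD1 scored 97.5, 91.4 and 67.0 there in replicate 2 without IL3 and was called once at each of 2 of them with IL3, at 14.9 and 26.6. No HDAC3 library with IL3 called any of the 3.

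The gene lists were described by the share of their genes with a region within 10 kb, beside the 2.76% of all genes. Any HDAC3 region without IL3 lay this near to 10.3% of all genes. In the HDAC3 and NCoR complex, 3 of 12 genes had one of the regions, Ncor1, Tbl1xr1 and Tbl1x. As many, 3 of 12, had a region with LSD1 and STAT5A within 10 kb, and 5 had any HDAC3 region. The Tbl1xr1 region (chr3:22076592-22076738) lay 13 bp from an annotated start of this gene for the TBLR1 subunit. HDAC3 scored 107.2 there in replicate 1 without IL3 and was called in no other replicate list, and LSD1 scored 42.7 and 66.6 in the replicate 2 lists without and with IL3. The nearest pooled STAT5A region was 57 bp away. The Tbl1x region, 225 bp from the gene end, had HDAC3 scores of 39.5 and 16.4 in the replicate 1 lists and LSD1 scores of 27.4 in replicate 2 without and 17.3 in replicate 1 with IL3. At Ncor1, the corepressor itself, the region (pooled HDAC3 score 13.3) was in none of the 8 LSD1 and HDAC3 replicate lists. STAT5A replicate 2 with IL3 called the Ncor1 region. It overlapped its LSD1 region by 5 bp, and the nearest pooled STAT5A region was 227 bp away. Of the LSD1 and CoREST complex, 1 of 18 genes had a region. It was Rcor2, a CoREST protein, 299 bp before its start, with HDAC3 at 25.7 and LSD1 at 45.7 in the replicate 2 lists without IL3 and neither in a replicate list with IL3. The pooled HDAC3 list with IL3 still held the Rcor2 region, at 15.8, and the pooled LSD1 list with IL3 did not. Suds3 was the 1 of 26 other corepressor genes, with LSD1 at 30.5 in replicate 2 without IL3 as its only call among the replicate lists.

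Among haematopoietic transcription factors 8 of 56 had a region within 10 kb: Nfe2l2, Cebpb, Mef2d, Lmo4, Cebpa, Irf2, Lyl1 and Zfpm1. More of them, 16 of 56, had a region with LSD1 and STAT5A, and 23 had any HDAC3 region, so this is not particular to regions without STAT5A. At Cebpa, the factor of granulocyte commitment, the region lay 5105 bp from the gene end. HDAC3 scored 56.4 in replicate 1 without IL3 alone, and LSD1 27.4 in replicate 2 without IL3 and 14.9 and 24.0 with IL3. At Zfpm1, the GATA cofactor FOG1, HDAC3 scored 56.4 in replicate 1 and LSD1 36.6 in replicate 2 without IL3, and no list with IL3 held the region. The Irf2 promoter region shown above was called by LSD1 replicate 2 at 33.5 without and 26.6 with IL3, and by HDAC3 replicate 1 with IL3 at 21.9. STAT5A replicate 2 with IL3 called it at 65, and its nearest pooled STAT5A region was 10 bp away. The Nfe2l2 region was called only by HDAC3 replicate 2 without IL3, at 22, among the 8 LSD1 and HDAC3 lists. Apoptosis genes with a region were 4 of 20 and included Mcl1, Bid and Bbc3, while 3 had a region with LSD1 and STAT5A and 9 any HDAC3 region. At Mcl1, a survival protein of the BCL2 family, the region lay 15 bp before an annotated start and was called at 33.8 by HDAC3 replicate 1 and 18.3 by LSD1 replicate 2, both without IL3, and with IL3 the pooled LSD1 list held it at 16.7. It overlapped its LSD1 region by 24 bp, and a pooled STAT5A region lay 95 bp away. At Bbc3, which encodes the cell death protein PUMA, LSD1 scored 57.9 in replicate 2 without IL3 and 34.7 and 56.0 with IL3. No HDAC3 replicate list held the Bbc3 region, while the pooled HDAC3 list with IL3 held it at 14.0. The Bid region had HDAC3 at 33.8 in replicate 1 and LSD1 at 30.5 in replicate 2 without IL3. With IL3, of the LSD1 and HDAC3 lists only the pooled LSD1 list held it, at 16.7, and STAT5A replicate 1 called it at 22.4.

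Of the STAT5 targets and cytokine feedback genes 2 of 21 had a region, Mcl1 and Dusp6, and of the immediate early genes 1 of 20, Fos. Regions with LSD1 and STAT5A lay within 10 kb of 4 and 5 genes of these lists, and any HDAC3 region of 7 and 8. The nearest pooled STAT5A region was 95 bp from the Mcl1 region, 10362 bp from the Dusp6 region and 4536 bp from the Fos region. The Fos region, 5090 bp before the start, had HDAC3 at 39.5 in replicate 1 without IL3 and LSD1 at 45.7 in replicate 2 without and 17.3 and 18.7 with IL3. The Dusp6 region, near this gene for a phosphatase of ERK, had HDAC3 at 33.8 in replicate 1 without IL3 and LSD1 at 30.5 and 21.3 in the replicate 2 lists without and with IL3. Mpo, myeloperoxidase, was the 1 of 23 myeloid and mast cell genes, and STAT5A replicate 1 without IL3 called its region at 32.8. Tfeb was the 1 of 20 autophagy genes, and the ribosomal protein genes of the cytosol had 5 of 87 and of mitochondria 2 of 78. Splicing genes had 2 of 28, translation factors 1 of 21, core transcription genes 2 of 25 and zinc finger genes 9 of 397. None of 21 B lineage genes, 30 cell cycle genes, 17 heat shock genes, 103 histone genes and 25 genes of other tissues had one.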

How the data were processed

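The authors deposited 18 lists of called regions, 1 for each of 12 libraries and 1 for each of 6 pooled libraries, each region with a score as its value. Per the submitters' processing notes, Trimmomatic 0.30, Bowtie2 2.1.0, Picard 1.92, HOMER 4.8 and the mm10 assembly were used. How the peak caller was set, its control, the read totals and what the score that the authors deposited means: not given in the sources used here. Scores were ranked and their medians taken within 1 list only, and an input sample was not used here.

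Regions were compared with Python 3.11.15 (numpy 2.4.6, scipy 1.17.1, pandas 2.3.3, matplotlib 3.10.9) by an overlap of 1 bp or more, on assembled chromosomes. The unit of each test was the library, by two-sided exact permutation or sign-flip permutation tests, with smallest p of 0.333 and 0.125. The planned tests of shares with against without IL3 are not reported, because the libraries without IL3 helped to choose the regions. Regions are not replicates, and 95% Wilson intervals cover counting error only. The rule and the tests of overlap were tested on simulated data.

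Gene bounds and promoter windows came from RefSeq (GRCm38.p6), with 17491 of 21883 protein-coding genes having a window. The 20 regions on chromosome 18 were not placed by strand. The members and the 20 gene lists were chosen with earlier results of these data known. Genes were named by a rule, with exceptions stated: the 10 regions with the highest HDAC3 and LSD1 scores and those in the most lists, up to 6 genes of each list, the genes with the most regions and up to 10 regions with a loss of HDAC3. The text gives a part of these, and 1 item is not reported here.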

Additional observations from a re-analysis of the deposited data

How the results depend on the processing

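Of the results recomputed under the alternatives, 159 values kept their direction and stayed near the value reported, 47 moved and 1 reversed. When at least 50% of the shorter region had to be shared, LSD1 with IL3 was found at 55.1% of the regions and LSD1 gains numbered 5. Without regions within 1 kb of a pooled STAT5A region, HDAC3 with IL3 was found at 6.25%, 18.4% lay near a gene end and HDAC3 losses numbered 9. In the upper part of the HDAC3 list by score, 425 regions remained, with 12.2% called in HDAC3 with IL3 and 14.8% near a gene end. Within 500 bp and 2000 bp of a gene end lay 18.2% and 27.3%, and 216 genes had a region within 1 kb.

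Leaving out each library in turn gave 69 to 1271 regions, LSD1 with IL3 at 30.4% to 84.4% and HDAC3 with IL3 at 0.802% to 18.8% of them, and 9.46% to 29.0% near a gene end. HDAC3 losses ran from 2 to 391 and gains from 0 to 8, and LSD1 losses from 1 to 333 and gains from 0 to 23. The change of the LSD1 share with IL3 ran from -58.1 to 1.95 percentage points, reversed without LSD1 replicate 1 with IL3, and that of HDAC3 from -96.0 to -19.5. The values -58.1 and -96.0, and the 391 and 333 losses, came from leaving out a library without IL3. The choice then required a call without IL3 in the list that was left. The difference between LSD1 and HDAC3 with IL3 ran from 27.8 to 66.7 percentage points. The difference from regions with STAT5A ran from -21.6 to -13.0 and that from regions with neither from 8.77 to 22.9.

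With the replicate block, differences were taken within replicate numbers, which leaves -21.2 for HDAC3, -9.11 for LSD1 and 38.9 between LSD1 and HDAC3 with IL3, the last with an exact sign-flip permutation p of 0.5, below which 2 pairs cannot go. Over the regions, the deviations of same-numbered libraries had a correlation of 0.209 for HDAC3 and 0.0255 for LSD1. These values do not settle whether the numbers pair libraries, and the main test was run without pairing. The planned window of 300 bases around each region and the motif content of the regions themselves were not run, for want of a genome sequence.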
